A study of Homo sapiens with 12 samples.

Results

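The response of resveratrol-treated salivary gland cells to poly I:C was described across 15735 genes. These were the genes with a TPM (a level divided by transcript length and scaled to the same sum in each library) of 1 or more in at least 2 of the 4 resveratrol libraries, out of 17185 genes that reached this level in at least 2 of all 12 libraries of the study. The other 1450 genes were tested with them, and none of those was called at an adjusted p under 0.05 by limma.

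The study sequenced polyadenylated RNA of NS-SV-AC, an immortalised human salivary gland acinar cell line, in work on Sjögren's syndrome and RNA of mitochondrial origin. The syndrome is an autoimmune disease of the salivary and tear glands. All 4 libraries described here came from cells given resveratrol (RES), a plant polyphenol, at a labelled dose of 20 µm, read here as micromolar, 24 h before transfection and once more at transfection. In the RES poly I:C group, 2 replicates received poly I:C by transfection for 14 h, a man-made RNA duplex that stands in for viral RNA. In the RES depc group, 2 replicates received the control transfection that the labels call depc. Growth for 48 h was shared by all groups. Groups of 2 replicates with the solvent DMSO, or with 2-CM (2'-C-methyladenosine, a nucleoside analogue) at the same labelled dose, had the same pair of transfections. The labels do not say whether replicates were separate cultures, so the p-values measure only the spread between these libraries. That spread was pooled over all 12 libraries and not taken from the RES libraries alone.

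Double-stranded RNA inside a cell is bound by sensors such as RIG-I and MDA5, which signal through MAVS to switch on interferon genes. Secreted type I and type III interferons act through JAK kinases and a complex of STAT factors with IRF9, which binds a promoter element of GAAA repeats and induces a large set of antiviral genes. Salivary epithelium of patients with Sjögren's syndrome is known for high levels of such interferon-induced genes.

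The depth was 5.52 and 4.77 gigabases aligned to annotated transcripts in RES depc replicates 1 and 2, and 4.69 and 4.45 in RES poly I:C replicates 1 and 2. Replicates within both groups stood apart from each other along the GC content of the genes. Across 15724 genes, Spearman's rho between GC content and the log2 difference of replicate 1 minus replicate 2 was -0.82 for depc and 0.81 for poly I:C, so genes with low GC content were high in depc replicate 1 and in poly I:C replicate 2. Of all genes tested, 28.8% differed 2-fold or more between the depc replicates and 16.1% between the poly I:C replicates. The results below are therefore given with the values of each library. Of the markers of epithelium, KRT8 ranged from 631 to 1426 TPM and KRT18 from 466 to 905 TPM in the 4 libraries, while EPCAM and CDH1 did not exceed 1.06 and 0.596 TPM. Of 13 markers of salivary acinar cells, 12 reached at most 1.24 TPM in any library, and AQP5, MUC7, PIP, PRB1, STATH and HTN1 were listed at 0 in all 4. These 6 include defining secretory products and the water channel of the acinar cells after which the labels name the line. Of 8 immune markers, PTPRC, CD3E and MS4A1 were at 0, and summed immune markers ranged from 16.6 to 23.1 TPM with depc and from 14.9 to 24.5 TPM with poly I:C. Markers of fibroblasts were present, with a summed level of 96.2 and 84.8 TPM with depc and 50.9 and 70.9 TPM with poly I:C, and their part in the results was not tested. The fibroblast markers did not move together. COL1A1, a fibrillar collagen chain, fell with poly I:C (log2 fold change -1.09, adjusted p 0.0401 by limma), its partner chain COL1A2 was listed at 0, and the matrix proteoglycans DCN and LUM had values of 1.15 and 0.83 with groups that overlapped (adjusted p 0.422 and 0.659).

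Poly I:C raised a set of antiviral genes and lowered a set of long transcripts in the presence of RES. At a Benjamini-Hochberg adjusted p under 0.05 by limma, 34 genes rose, or 0.198% of the 17185 tested, and 42 fell, or 0.244%, together 0.442%. These calls use the spread pooled over all 12 libraries, and a fit of only the 4 RES libraries called 0 genes. All 76 were among the 15735 genes described. Their values in the 2 poly I:C libraries lay wholly outside those of the 2 depc libraries, as was true of 6.05% of all genes tested in the higher direction and 24.1% in the lower. Over all genes tested the log2 fold changes had a median of -0.03. The calls in the 2 directions depended differently on the processing. Under median-of-ratios scaling 37 genes were called higher and 2 lower, or 0.215% and 0.0116% of those tested and 0.227% together, and 27 of the 34 that rose were called but 2 of the 42 that fell, the small nuclear RNAs U1 and RNU4-2. With the trend of each library along GC content removed, 251 were called higher and 359 lower, or 1.46% and 2.09% (3.55% together), and those included all 34 that rose and 40 of the 42 that fell. The median log2 fold change of the 42 genes was -1.26 as reported, -1.24 under median-of-ratios scaling and -0.93 after the GC correction. Leaving out 1 of the 12 libraries at a time gave 17 to 31 higher and 0 to 22 lower calls, with 1 lower call without RES poly I:C replicate 1 and 0 without RES poly I:C replicate 2. Of the genes that rose, 21 belonged to 9 lists of the interferon system, which held 93 tested genes, and none of the 42 that fell did. Of these 93 genes, 63 were higher in both poly I:C libraries than in both depc libraries, and 5 were lower. Under median-of-ratios scaling 25 of the 93 were called higher, and after the GC correction 62 higher and 1 lower. The authors' deposited table lists 33 of them as higher.

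**Figure D1:**
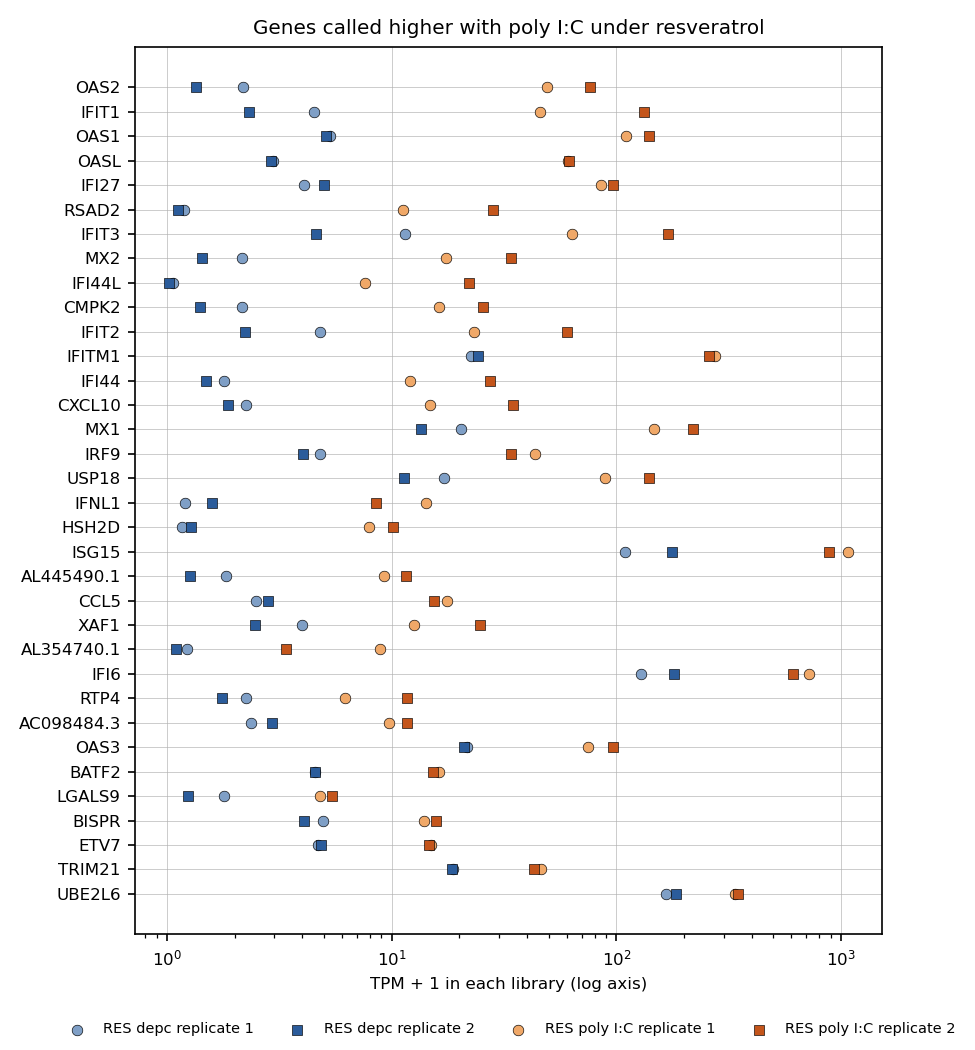
Each row is a gene that rose with poly I:C under RES, ordered by log2 fold change, and the points give TPM + 1 in the 4 libraries on a log axis, with depc in blue and poly I:C in orange, circles for replicate 1 and squares for replicate 2. In all 34 genes both orange points lie to the right of both blue points, and OASL, IFITM1 and OAS1 have close replicates where IFIT1, IFIT3 and IFI44L do not.

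The OAS enzymes, which make an oligoadenylate messenger when they bind double-stranded RNA, included the gene with the largest log2 fold change of the 76. OAS2 (chromosome 12, 112978395 to 113011723) was at 1.17 and 0.342 TPM in the depc libraries and reached 47.9 and 75.4 TPM under poly I:C (log2 fold change 5.16, SE 0.30, adjusted p 2.23e-04). OAS1 (chromosome 12, 112906783 to 112933222) was at 4.30 and 4.11 TPM against 109 and 138 TPM, a change of 4.57 (SE 0.19, adjusted p 4.80e-05). In the limma fit of only the 4 RES libraries the SE of OAS1 was 0.38 and its adjusted p 0.142. Both genes were more than an order of magnitude higher in each poly I:C library than in each depc library. OASL, an OAS-like protein that lacks the enzymatic activity, was at 1.97 and 1.90 TPM against 60.1 and 60.7 TPM (log2 fold change 4.39, adjusted p 1.13e-04). OAS3, the largest enzyme of the family, started from a higher level and rose less, from 20.7 and 19.9 TPM to 74.1 and 95.5 TPM (2.00, adjusted p 0.00260). The 4 OAS calls were made with any of the 4 RES libraries left out.

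Of the 4 genes of the IFIT proteins, which bind viral RNA and block its translation, 3 rose, with a wide gap between replicates. IFIT1 (chromosome 10, 89392546 to 89406487) was at 3.50 and 1.32 TPM with depc and reached 44.5 and 132 TPM under poly I:C (log2 fold change 4.59, SE 0.55, adjusted p 0.0144). IFIT3 was at 10.5 and 3.61 TPM against 62.7 and 169 TPM (3.84, adjusted p 0.0362), and IFIT2, whose exons overlap those of LIPA, at 3.80 and 1.22 TPM against 22.2 and 59.1 TPM (3.52, adjusted p 0.0372). IFIT5, at 7.39 and 1.97 TPM against 9.85 and 32.3 TPM, also did not overlap between groups but missed the threshold (1.93, adjusted p 0.277). After the GC correction all 4 genes were called higher. With the replicate number as a block in limma, IFIT3 and IFIT2 were not called (adjusted p 0.0584 and 0.0666). In all 4 genes depc replicate 1 exceeded depc replicate 2, and poly I:C replicate 2 exceeded poly I:C replicate 1. The family has a median GC content of 41.0%, against 49.5% for all genes described, and the part of GC content in these gaps was not tested. Its 3 calls fell to 1 without RES depc replicate 1 or without RES poly I:C replicate 1, and to 0 without RES depc replicate 2 or RES poly I:C replicate 2. The family's median log2 fold change was 3.68, and ran from 2.98 to 4.38 with those libraries left out.

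Of 22 genes on the list of MX, IFI and IFITM effectors, 9 rose, none fell and 19 were higher in both poly I:C libraries than in both depc libraries, as 6.05% of all genes tested were. After the GC correction 19 of the list were called higher. IFI27 (chromosome 14, 94104836 to 94116698), a mitochondrial protein and a common marker of interferon activity in Sjögren's syndrome, was at 3.09 and 4.02 TPM against 84.7 and 96.0 TPM (4.33, SE 0.24, adjusted p 1.95e-04). RSAD2, or viperin, which makes a chain-terminating nucleotide, was at 0.190 and 0.121 TPM against 10.2 and 27.2 TPM (3.95, adjusted p 0.0111). Its neighbour CMPK2, a mitochondrial nucleotide kinase with exons that overlap those of RSAD2, was at 1.15 and 0.403 TPM against 15.3 and 24.4 TPM (3.55, adjusted p 0.00299). These 3 genes were near or below 4 TPM in both depc libraries and above 10 TPM in both poly I:C libraries. The dynamin-like GTPases MX1 and MX2, which trap viral nucleocapsids, rose from 19.4 and 12.5 to 146 and 218 TPM (3.44, adjusted p 7.22e-04) and from 1.15 and 0.437 to 16.4 and 33.0 TPM (3.79, adjusted p 0.00466). IFITM1, which blocks fusion of viral and cell membranes, was at 21.5 and 23.2 TPM against 273 and 258 TPM (3.51, adjusted p 2.99e-04). It overlaps IFITM2 and has close paralogs, so its level is uncertain. IFI44 and IFI44L, poorly understood cytoplasmic proteins, were at most 0.788 TPM with depc and at least 6.61 TPM with poly I:C (3.48, adjusted p 0.0196, and 3.63, adjusted p 0.0362). IFI6, which protects membranes from viral remodelling, rose from a high level, 127 and 180.3 TPM, to 721 and 608 TPM (2.12, adjusted p 0.00634), and was not called under median-of-ratios scaling (adjusted p 0.171). The most abundant gene of the list, the membrane protein IFITM3, was at 559.9 and 783 TPM against 1457 and 1240.5 TPM and missed the threshold (1.02, adjusted p 0.0963). LY6E, which restricts entry of some viruses, was at 327 and 574 TPM against 399.9 and 275 TPM and its groups overlapped. The median of the list was 1.67. Without any one RES library 6 to 8 of its genes were called, 6 without RES depc replicate 1, RES depc replicate 2 or RES poly I:C replicate 2.

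Of 6 tested genes of conjugation by the ubiquitin-like modifier ISG15, 3 rose and none fell. After the GC correction 5 of them were called higher. ISG15 (chromosome 1, 1001138 to 1014540) was at 108 and 176 TPM against 1075 and 887 TPM (2.82, SE 0.30, adjusted p 0.00748). USP18, the protease that removes ISG15 and restrains the interferon receptor, was at 16.1 and 10.3 TPM against 88.3 and 138 TPM, an 8.57-fold higher mean (adjusted p 0.00466). UBE2L6, the conjugating enzyme, rose 1.95-fold in mean TPM, from 166 and 183 to 335 and 347 TPM (0.96, adjusted p 0.0401). HERC5, the ligase, was at 7.38 and 3.75 TPM against 16.7 and 39.2 TPM and missed the threshold (2.08, adjusted p 0.122), as did the activating enzyme UBA7, whose groups overlapped. The 3 calls fell to 1 without RES poly I:C replicate 1 or 2, and ISG15 and UBE2L6 were not called under median-of-ratios scaling (adjusted p 0.0951 and 0.521).

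Upstream of these effectors, of 10 tested interferons and receptors 1 rose: IFNL1, a type III interferon that acts on epithelium, was at 0.206 and 0.589 TPM against 13.2 and 7.49 TPM (2.99, adjusted p 0.00748). It was not called without RES depc replicate 1 or RES poly I:C replicate 1. IFNB1, the first type I interferon made after sensing, was listed at 0 in both depc libraries and reached 1.46 and 3.32 TPM under poly I:C (1.71, adjusted p 0.0908). The receptor genes IFNAR1, IFNAR2, IFNGR1, IFNGR2 and IL10RB overlapped between groups. Of 13 JAK-STAT and IRF factors 1 rose: IRF9, the DNA-binding subunit of the STAT complex, was at 3.81 and 3.02 TPM against 42.6 and 32.9 TPM (3.13, adjusted p 0.00171), and was called without each RES library. Its partner STAT2, at 59.3 and 47.5 TPM against 87.4 and 96.2 TPM, was higher in each poly I:C library than in each depc library but missed the threshold (0.78, adjusted p 0.122). In the opposite direction, IRF3, the factor that starts interferon transcription, was at 197 and 260.1 TPM against 166 and 125 TPM (-0.65, adjusted p 0.228). After the GC correction 4 of the 10 interferons and receptors and 7 of the 13 JAK-STAT and IRF factors were called higher.

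None of 15 sensors and adaptors of double-stranded RNA was called by limma, while 8 were higher in both poly I:C libraries than in both depc libraries and 2 were lower, and the median was 0.95. Of all genes tested 6.05% were higher and 24.1% lower in this way. After the GC correction 8 of the list were called higher and 1 lower, and the authors' deposited table lists 4 as higher. DDX58, the gene of RIG-I, was at 3.47 and 0.868 TPM against 14.5 and 49.3 TPM (3.27, adjusted p 0.0940). IFIH1, the gene of MDA5, was at 4.41 and 1.99 TPM against 13.2 and 29.6 TPM (2.37, adjusted p 0.0819). Both showed the same order of replicates as the IFIT genes, and both passed after the GC correction (adjusted p 1.68e-04 and 9.38e-05) and under median-of-ratios scaling (adjusted p 0.0183 and 0.00892). The adaptor MAVS, at 29.7 and 24.8 TPM against 16.3 and 15.6 TPM, was lower in both poly I:C libraries (-0.73, adjusted p 0.151). The RNA-editing enzyme ADAR had a long, interferon-inducible form, p150, at 1.33 and 2.05 TPM with depc and 11.4 and 13.6 TPM with poly I:C. Its short form, p110, was at 53.8 and 41.5 TPM against 51.7 and 60.9 TPM, so only the long form was apart between the groups, in transcript values that were not tested.

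Other immune genes that rose were the chemokines CXCL10 and CCL5, which attract T cells. CXCL10 was at 1.24 and 0.871 TPM against 13.8 and 33.5 TPM (3.47, adjusted p 0.0309), and CCL5 at 1.49 and 1.80 TPM against 16.5 and 14.4 TPM (2.64, adjusted p 0.00600). Of 16 chemokines and cytokines tested no other was called by limma, among them IL6 at 1.44 and 0.376 TPM against 2.50 and 4.27 TPM. After the GC correction 7 of the list were called, and the authors' deposited table lists 4 as higher. By limma, 1 was called without RES depc replicate 1, RES depc replicate 2 or RES poly I:C replicate 2 and 0 without RES poly I:C replicate 1. TRIM21, the Ro52 autoantigen of Sjögren's syndrome and an antibody receptor inside cells, was at 17.8 and 17.5 TPM against 45.1 and 41.8 TPM (1.25, adjusted p 0.0257), the single call on a list of 6 Sjögren autoantigens and ligands. It was not called under median-of-ratios scaling (adjusted p 0.325) or without any one RES library. XAF1, a promoter of cell death, was at 2.97 and 1.47 TPM against 11.6 and 23.7 TPM (2.49, adjusted p 0.0489) and was the single call among 17 tested death genes, lost without any one RES library. The remaining genes that rose were outside the interferon lists and were named after their values were seen. They included the signalling adaptor HSH2D (2.89, adjusted p 9.88e-04), the transcription factors BATF2 (1.80, adjusted p 0.0188) and ETV7 (1.63, adjusted p 0.0254), the chaperone RTP4 (7.93-fold in mean TPM, adjusted p 0.0449), the lectin LGALS9 (1.77, adjusted p 0.0309), and BISPR, a long non-coding RNA beside BST2 (1.72, adjusted p 0.0362). Under median-of-ratios scaling BATF2 and ETV7 were not called (adjusted p 0.111 and 0.169). The long non-coding RNA AL445490.1 (chromosome 1, 27669468 to 27703063), whose span covers the start of IFI6 on the opposite strand, was at 0.825 and 0.268 TPM against 8.20 and 10.6 TPM (2.76, adjusted p 0.00634). Strand was not stated to be used in the counting, so overlapping genes are uncertain. Of 19 tested genes of MHC class I presentation none was called by limma and 2 were after the GC correction, with a median of 0.08, and B2M, the light chain, was at 374 and 157 TPM against 376 and 939.5 TPM (1.29, adjusted p 0.356). Of 17 feedback genes of NF-kB none was called either, and 1 was after the GC correction, with a median of -0.24.

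**Figure D2:**
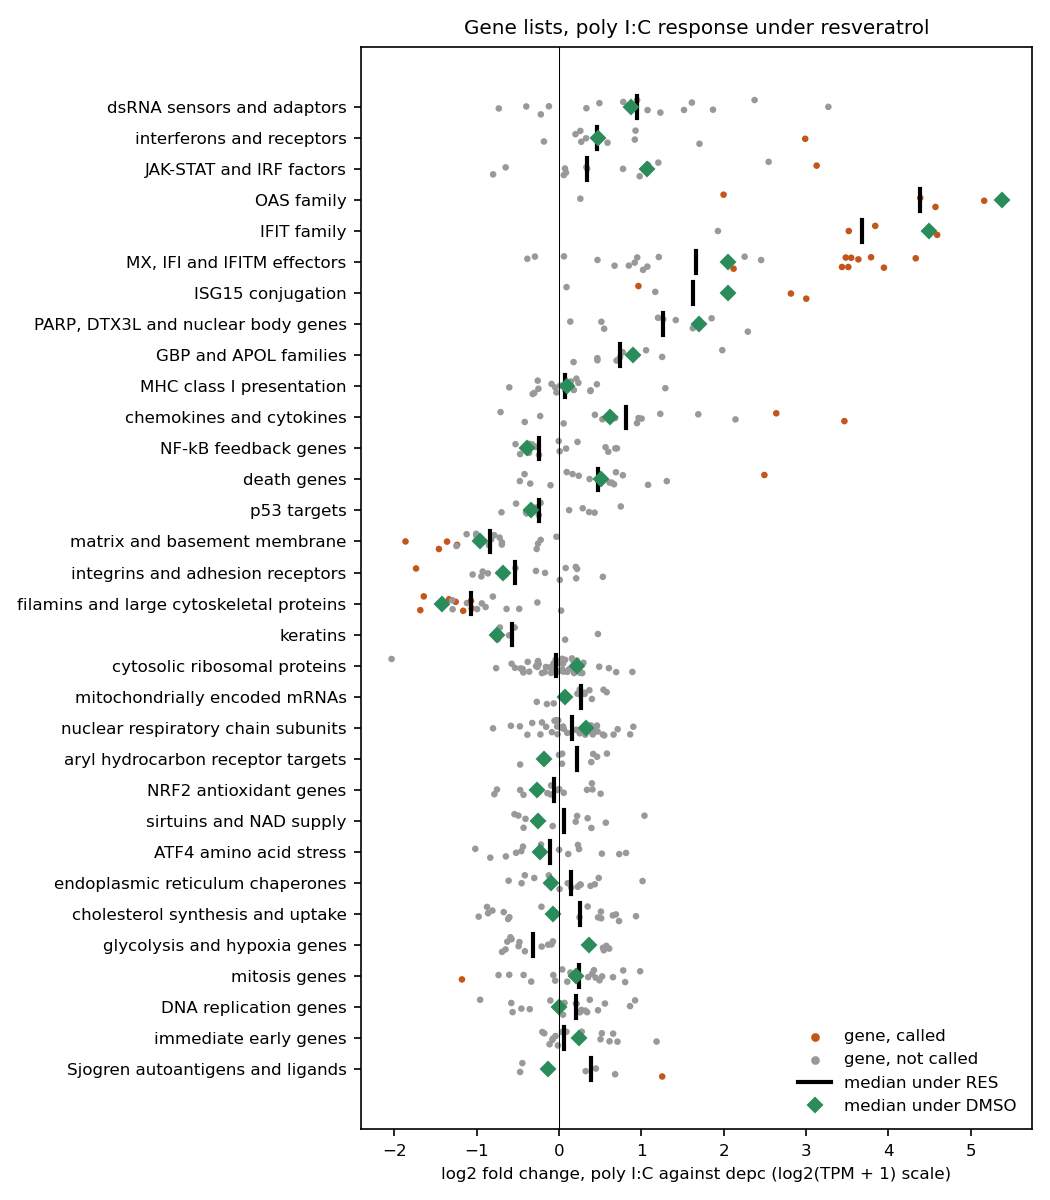
Each point is a gene of the named list, plotted by its log2 fold change with poly I:C under RES, in orange where the adjusted p was under 0.05. Black bars give the list's median under RES and green diamonds its median under DMSO. The OAS and IFIT lists lie farthest to the right, at medians of 4.39 and 3.68. The filamin, matrix and integrin lists have medians left of 0, as several other lists do, and some integrin genes lie right of 0.

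The promoters of the genes that rose were compared by sequence, because interferon-induced genes are known for a GAAA-repeat element. The 250 bases before the start site in the RefSeq table for GRCh38.p14 were searched on both strands for 2 copies of GAAA with any 2 bases between them, which read as TTTC copies on the opposite strand, and no other motif was searched. Of the 34 genes that rose, 21 had an entry and 13 of these, or 61.9%, held a match. Of the 42 genes that fell, 27 had an entry and 0 held one. A match was present in 13 of 48 promoters of genes on the interferon lists that were not called (27.1%), in 2.26% of 10065 promoters of the genes described and in 3.02% of all 35116 promoters in the table. Stretches around the matches are shown for 9 of the 13 genes to let the element be read. They run 5′ to 3′ along the gene's strand, with matches in capitals, and adjacent or overlapping matches run together.
IFIT1: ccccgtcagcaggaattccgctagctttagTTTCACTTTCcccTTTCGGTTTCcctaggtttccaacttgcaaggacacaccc
IFIT3: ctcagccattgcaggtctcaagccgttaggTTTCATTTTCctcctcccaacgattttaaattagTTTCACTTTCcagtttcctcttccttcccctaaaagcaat
IFI27: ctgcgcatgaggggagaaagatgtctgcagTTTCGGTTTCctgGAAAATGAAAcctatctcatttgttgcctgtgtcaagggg
IFI44: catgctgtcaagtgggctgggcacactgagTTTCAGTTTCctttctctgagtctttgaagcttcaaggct
IFI6: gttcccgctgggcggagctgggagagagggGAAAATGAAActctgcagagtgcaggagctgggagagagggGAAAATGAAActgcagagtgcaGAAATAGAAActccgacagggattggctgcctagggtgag
ISG15: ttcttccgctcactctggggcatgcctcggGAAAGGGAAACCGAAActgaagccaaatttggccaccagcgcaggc
IFNL1: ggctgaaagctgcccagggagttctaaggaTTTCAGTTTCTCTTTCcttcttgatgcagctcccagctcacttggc
CXCL10: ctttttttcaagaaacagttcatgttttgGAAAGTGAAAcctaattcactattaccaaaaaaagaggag
RTP4: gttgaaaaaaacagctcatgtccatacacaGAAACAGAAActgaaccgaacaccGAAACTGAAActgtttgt

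The stretches lie at chr10:89392477-89392559 (IFIT1), chr10:89327811-89327914 (IFIT3), chr14:94110598-94110680 (IFI27), chr1:78649741-78649810 (IFI44), chr1:27672246-27672378 (IFI6, minus strand), chr1:1013354-1013429 (ISG15), chr19:39296163-39296238 (IFNL1), chr4:76023679-76023747 (CXCL10, minus strand) and chr3:187368313-187368384 (RTP4). Those without a strand are on the plus strand. IFIT1, IFIT3, IFI27, ISG15, IFNL1 and RTP4 each held 2 matches and IFI6 held 3. In ISG15 and IFNL1 the 2 matches share a GAAA block, so that 3 such blocks follow each other. The OAS1, MX1, CMPK2 and IRF9 promoters had entries without a match in this window. These matches are descriptions of sequence, and binding was not measured.

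Of the 42 genes that fell, 13 were on the 3 lists of matrix, adhesion and cytoskeletal proteins, 1 was on another list and the rest were on none. Of 41 with a length, the median length of the main transcript was 8290 bases, against 2474 for all genes described, and 29 exceeded 7000 bases, as 7.52% of all genes described did. Their median GC content was 58.5%. The genes that rose had a median length of 1896.5 bases, none above 7000, and a median GC content of 51.4%.

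Matrix and basement membrane genes lay lower with poly I:C as a list. Of 18 tested genes 4 fell, none rose, and 15 were lower in both poly I:C libraries than in both depc libraries, with a median of -0.84. Of all genes tested 24.1% were lower in this way. The list's median transcript length was 7774 bases and its median GC content 52.0%, and their part in these falls was not tested. HSPG2 (chromosome 1, 21822244 to 21937310), the basement membrane proteoglycan perlecan, was at 33.1 and 38.1 TPM with depc and 9.29 and 8.76 TPM under poly I:C (log2 fold change -1.86, SE 0.21, adjusted p 0.0111). LAMA5, a laminin chain whose exons overlap those of ADRM1, was at 52.2 and 54.7 TPM against 20.8 and 17.0 TPM (-1.46, adjusted p 0.0372). The basement membrane collagen COL4A2 was at 59.3 and 72.1 TPM against 25.2 and 24.5 TPM (-1.36, adjusted p 0.0214), and the fibrillar collagen COL5A1 at 42.1 and 45.5 TPM against 17.9 and 18.1 TPM (-1.24, adjusted p 0.0257). Each was at more than 2 times its poly I:C mean in the depc mean. FN1, or fibronectin, at 119 and 87.9 TPM against 39.7 and 54.2 TPM, did not pass (-1.12, adjusted p 0.105), and SPARC overlapped between groups. Called genes of this list numbered 2 without RES depc replicate 1 and 0 without each of the other RES libraries.

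The list of filamins and large cytoskeletal proteins held 8 genes that fell out of 19, with 15 lower in both poly I:C libraries, as 24.1% of all genes tested were, and a median of -1.07. Its median transcript length was 8079 bases and its median GC content 56.1%. Of 127 protein-coding genes above 7000 bases with 55 to 65% GC, 98.4% were lower in both poly I:C libraries, with a median of -0.87. The part of length and GC content in this list's falls was not tested. The actin cross-linkers FLNC and FLNA were at 111 and 139 against 40.6 and 35.7 TPM (-1.68, adjusted p 0.0159) and at 198 and 261 against 88.2 and 77.9 TPM (-1.45, adjusted p 0.0309). PLEC, or plectin, which links intermediate filaments to junctions, was at 32.3 and 39.4 TPM against 11.8 and 9.83 TPM (-1.64, adjusted p 0.0254). MYH9, the heavy chain of non-muscle myosin, was at 143 and 141 TPM against 59.5 and 58.3 TPM (-1.25, adjusted p 0.0161), with close replicates in both groups. TLN1, SPTAN1 and AHNAK2 also fell, while vimentin, VIM, stayed at 537 and 386 TPM against 397 and 541 TPM with groups that overlapped. Without RES depc replicate 1 a single gene of the list was called, and without each of the other RES libraries 0. Under median-of-ratios scaling 0 of the 8 was called, at medians that hardly moved (-1.05 for the list), and after the GC correction 12 genes of the list were called, with a median of -0.86.

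**Figure D3:**
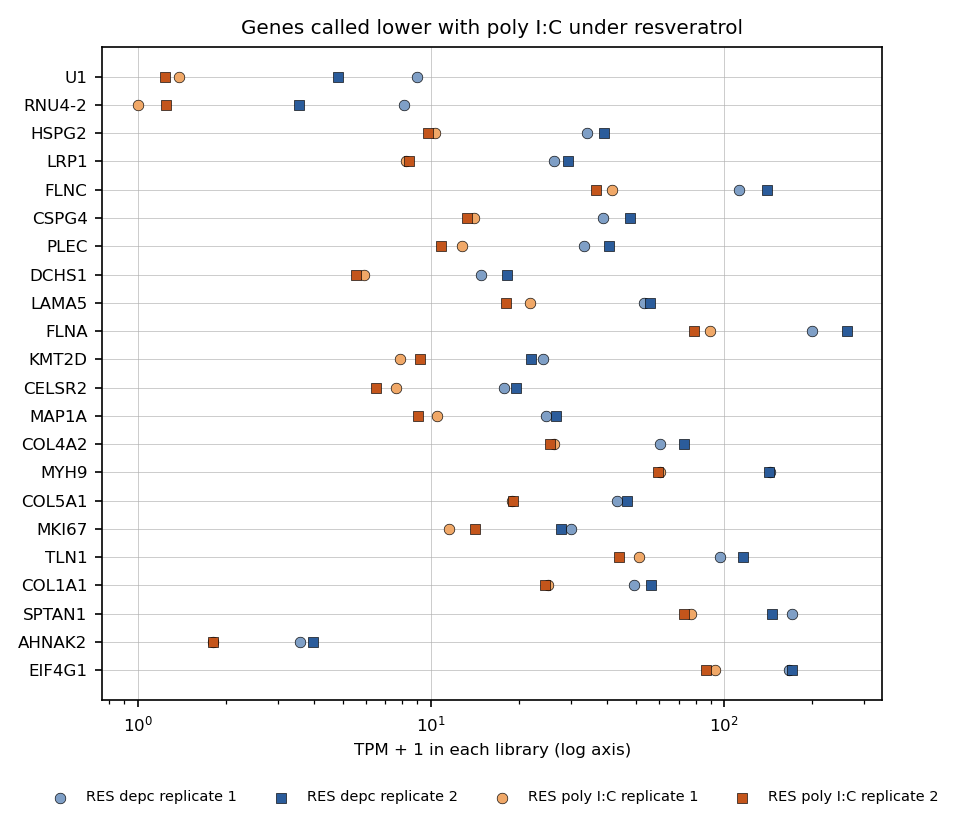
Each row is a named gene that fell with poly I:C under RES, ordered by log2 fold change, with TPM + 1 in the 4 libraries on a log axis, depc in blue and poly I:C in orange, circles for replicate 1 and squares for replicate 2. In all genes shown both orange points lie to the left of both blue points, from the small nuclear RNAs U1 and RNU4-2 at the top to EIF4G1, which differs least.

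Among receptors, LRP1, an endocytic receptor for matrix and lipoprotein ligands whose exons overlap those of STAT6, was at 25.2 and 28.3 TPM against 7.25 and 7.40 TPM (-1.74, adjusted p 0.0111), the single call among 17 tested integrins and adhesion receptors, lost without RES depc replicate 2 or either RES poly I:C replicate. Outside the lists, the membrane proteoglycan CSPG4 was at 42.2 ± 6.47 TPM against 12.6 ± 0.520 TPM (mean ± SD, n = 2 each, log2 fold change -1.65, adjusted p 0.0185 by limma). The large cadherins DCHS1 (-1.52, adjusted p 0.0360) and CELSR2 (-1.40, adjusted p 0.0274) and the microtubule protein MAP1A (-1.40, adjusted p 0.0274) also fell. KMT2D, a histone methyltransferase, was at 23.1 and 20.9 TPM against 6.82 and 8.19 TPM (-1.44, adjusted p 0.0372), a call lost without any one of the 12 libraries and under median-of-ratios scaling (adjusted p 0.130). The calls of DCHS1, CELSR2 and MAP1A were lost without any one RES library, and that of CSPG4 without RES depc replicate 2 or either RES poly I:C replicate. Libraries of the other groups mattered as well. Out of the 12 libraries, leaving out 1 lost the call for 10 with DCHS1, 11 with CELSR2, 10 with MAP1A and 9 with CSPG4. The proliferation marker MKI67 was at 29.0 and 26.7 TPM against 10.5 and 13.1 TPM (-1.18, adjusted p 0.0462), a call lost without any one RES library. The other 19 mitosis genes tested were not called and the list's median of 0.25 ran from -0.26 without RES depc replicate 2 to 0.71 without RES depc replicate 1. LRP1, CSPG4, DCHS1, CELSR2, MAP1A and MKI67 were not called under median-of-ratios scaling either (the smallest adjusted p was 0.121, for LRP1). Not all genes that fell were long. U1, a small nuclear RNA of the spliceosome with near-identical copies and therefore uncertain, was at 7.99 and 3.83 TPM against 0.389 and 0.243 TPM (-2.33, adjusted p 0.0274), a call lost without RES depc replicate 1 or either RES poly I:C replicate. Counting libraries of the other groups as well, leaving out 1 library lost the U1 call for 9 of the 12. RNU4-2, another small nuclear RNA, was at 7.07 and 2.54 TPM against 0 and 0.254 TPM (-2.25, adjusted p 0.0489). Other RNAs without a poly(A) tail differed as widely between replicates, among them RN7SK at 296 and 66.5 TPM with depc and 65.9 and 21.0 TPM with poly I:C, which was not called (adjusted p 0.295), and the median over 10 such markers was -1.08, but -0.23 without RES depc replicate 1 and -2.11 without RES depc replicate 2. In bulk samples a smaller number of cells that express a gene and less RNA per cell cannot be told apart.

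The log2 fold change fell with GC content over all genes, and with length within a range of GC content. Across 15724 genes Spearman's rho between GC content and the log2 fold change was -0.68, and that between transcript length and the log2 fold change was -0.09. These are descriptions over genes that share the same 4 libraries. Among 1950 protein-coding genes with up to 40% GC the median log2 fold change was 0.45, and among 2124 with over 60% it was -0.51. Over protein-coding genes of all GC contents the medians by length were 0.03 up to 1000 bases, 0.00 from 1000 to 2000, 0.03 from 2000 to 4000, 0.00 from 4000 to 7000 and -0.20 above, with no trend up to 7000. Within a GC content of 55 to 65%, the median was -0.32 for 1397 genes of up to 2000 bases, -0.46 for 1454 genes of 2000 to 4000, -0.63 for 626 genes of 4000 to 7000 and -0.87 for 127 longer genes. In those classes 34.1%, 70.5%, 89.9% and 98.4% of the genes were lower in both poly I:C libraries than in both depc libraries. The same classes had medians of -0.30, -0.50, -0.72 and -0.98 under DMSO. The part of RNA quality or of library preparation in this relation with length was not tested.

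**Figure D4:**
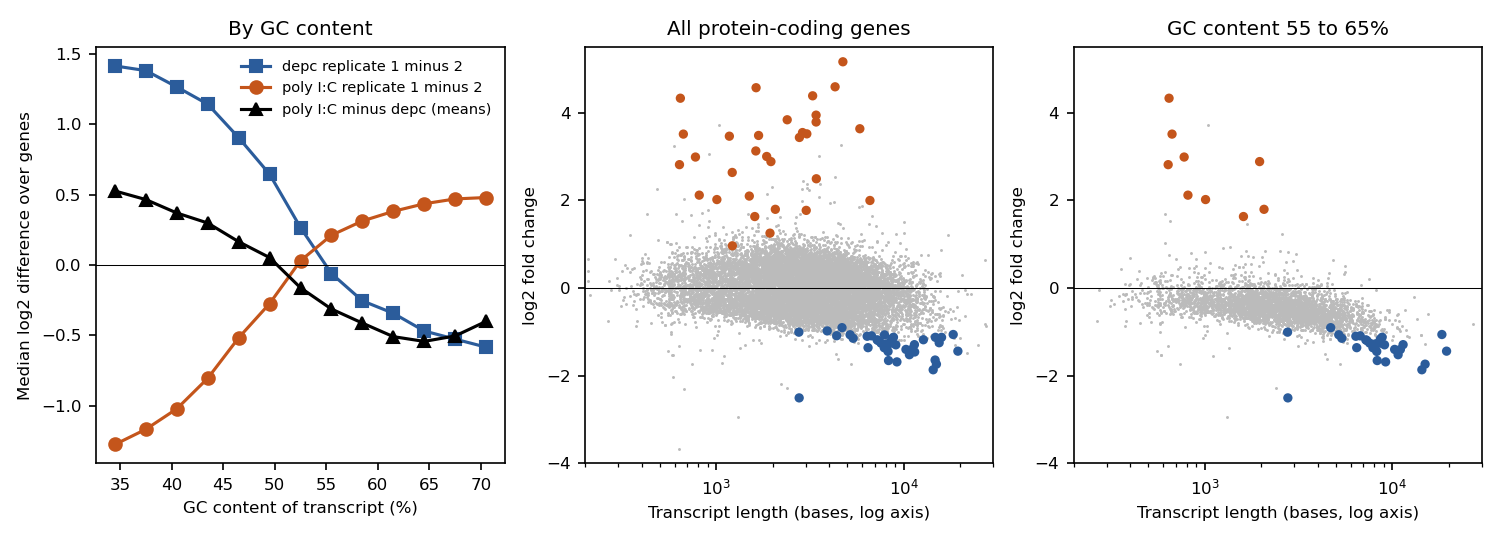
The left panel plots, for protein-coding genes in bins of GC content, the median log2 difference between the depc replicates, between the poly I:C replicates and between the poly I:C and depc means. The other panels plot the log2 fold change of each protein-coding gene against the length of its main transcript on a log axis, for all genes and for those with a GC content of 55 to 65%, with genes that rose in orange and genes that fell in blue. The replicate curves slope in opposite directions, and within the GC window the grey cloud falls with length, from a median of -0.32 up to 2000 bases to -0.87 above 7000.

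Other programmes showed few or no calls by limma. Of the 13 mitochondrially encoded mRNAs none was called, 9 were higher in both poly I:C libraries, as 6.05% of all genes tested were, and the median was 0.26. The complex I subunit MT-ND2 came closest, at 7531 and 7519 TPM against 10909 and 11581 TPM (0.58, adjusted p 0.0514), while MT-ND5 lay lower, at 4648 and 5195 TPM against 4205 and 3948 TPM (-0.27, adjusted p 0.415). Since TPM is a share of the library, a change in such abundant RNAs can move the share left to other genes, and its size here was not tested. Of 16 glycolysis and hypoxia genes none was called (1 after the GC correction) and 7 were lower in both poly I:C libraries, with a median of -0.31. Of all genes tested 24.1% were lower in this way, and 34.2% of protein-coding genes with 50 to 55% GC. The list's median GC content was 54.3%, and its part in these values was not tested. For pathways linked to RES in the literature, none of 8 tested aryl hydrocarbon receptor genes, 14 NRF2 genes or 12 sirtuin and NAD genes was called, with medians of 0.22, -0.06 and 0.06. Each of these medians changed sign with 1 RES library left out, from -0.21 to 0.74, from -0.28 to 0.01 and from -0.25 to 0.37. The median of all genes tested itself ran from -0.26 to 0.22 in the same way. SIRT1, the deacetylase most often studied with RES, was at 8.68 and 2.68 TPM against 4.77 and 12.6 TPM, and its groups overlapped. All cells here had RES, so these counts concern poly I:C alone.

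The response under RES was then set against that under DMSO, which shares no library with it. Both were tested with the same pooled spread per gene, for example an SE of 0.21 for HSPG2 in both. Their calls are therefore not independent, and a shared call is partly built in. Of the 34 genes that rose under RES, 32 were also called higher under DMSO, where 0.797% of all genes tested were called higher and 4.08% in either direction, and in 32 of the 34 the log2 fold change was smaller in size under RES than under DMSO, as it was in 27 of the 42 genes that fell and in 8694 of the 15735 genes described. All 42 genes that fell under RES had a negative log2 fold change under DMSO, 39 of them called, where 3.28% of all genes tested were called lower. Across the 15735 genes Spearman's rho between the 2 responses was 0.72. The test of the difference of the responses called 0 genes by limma, while 293 of 17185 had an unadjusted p under 0.05, 101 with a higher and 192 with a lower log2 fold change under RES than under DMSO, or 0.588% and 1.12%. A share of 0.05 would on average pass at this level if no gene differed, and the 293 genes are fewer than that. These 293 are thus no sign of a difference, and 0 calls do not show equal responses. After the GC correction 1216 had an unadjusted p under 0.05 and 0 were called, and the count also moved with 1 RES library left out. Spearman's rho between GC content and the difference was -0.30 across genes. A higher value can be a smaller fall, so the sign is not the size of the response. In the 9 interferon lists 12 of 93 genes had a lower value under RES at an unadjusted p under 0.05 and none a higher one, and the median difference was -0.16, against 0.11 for all genes tested.

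IFI27 had one of the 4 smallest unadjusted p values for a lower value under RES than under DMSO, among the genes described at a mean of 5 TPM or more. It was at 0.619 and 0.752 TPM with DMSO depc and at 3.09 and 4.02 TPM with RES depc, against 114 and 170 TPM with DMSO poly I:C and 84.7 and 96.0 TPM with RES poly I:C. Its response was smaller by 2.05 on the log2 scale under RES (SE 0.34, unadjusted p 2.29e-04, adjusted p 1.00). Both RES depc libraries thus lay above both DMSO depc libraries, and both RES poly I:C libraries below both DMSO poly I:C libraries. Of the 34 genes that rose, 32 had a higher depc mean under RES than under DMSO, as 70.2% of all genes tested had, and 13 had a higher poly I:C mean, or 38.2%, against 75.9% of all genes tested. Differences between RES and DMSO at the depc or poly I:C level were not tested here.

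The others of these 4 were genes that rose under DMSO (adjusted p 0.00458 to 0.0413 for SLPI, NDRG1 and ALDOC) and were not called under RES, with log2 fold changes from -0.51 to -0.21. SLPI, a secreted inhibitor of leukocyte protease that protects mucosal surfaces, was at 3.79 and 3.49 TPM with DMSO depc and at 17.7 and 20.0 TPM after DMSO poly I:C, but at 4.82 and 6.16 TPM with RES depc and 5.32 and 3.94 TPM with RES poly I:C. The difference was -2.30 (SE 0.32, unadjusted p 5.70e-05, adjusted p 0.621). NDRG1, a stress and hypoxia gene, was at 5.71 and 5.83 TPM against 23.3 and 19.9 TPM under DMSO and at 12.6 and 19.9 TPM against 9.94 and 13.6 TPM under RES, a difference of -2.15 (adjusted p 1.00). ALDOC, a glycolytic aldolase, was at 15.2 and 17.4 TPM against 32.3 and 39.3 TPM under DMSO and at 65.3 and 96.2 TPM against 62.6 and 48.9 TPM under RES, a difference of -1.60 (adjusted p 1.00). For ALDOC all 4 RES libraries exceeded all 4 DMSO libraries. In the other direction, FN1 and the intermediate filament NES fell under DMSO by 2.64 and 2.11 (adjusted p 0.00157 and 0.00170) and had values of -1.12 and -1.12 under RES, differences of 1.52 and 0.99 (adjusted p 1.00 for both). MT-ND1, a mitochondrially encoded complex I subunit, had a difference of 0.63 (adjusted p 1.00). AL354740.1, a long non-coding RNA that overlaps NUDT3 and is uncertain, was called higher under RES, at 0.225 and 0.0932 TPM with depc against 7.90 and 2.40 TPM with poly I:C, but not under median-of-ratios scaling (adjusted p 0.0757). Its value under DMSO was -0.05, but the difference of 2.30 did not pass either (adjusted p 1.00).

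**Figure D5:**
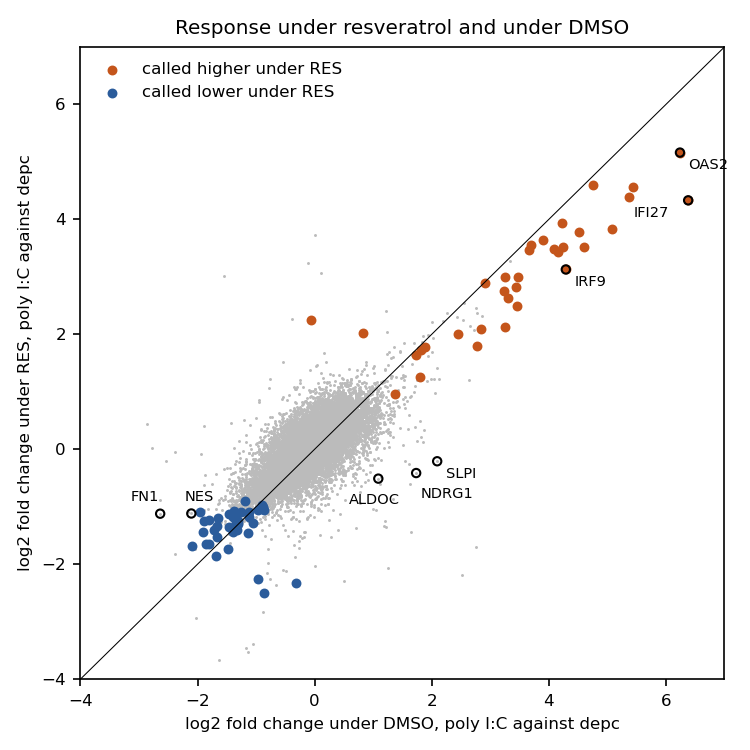
Each point is 1 of the 15735 genes, with its log2 fold change for poly I:C under DMSO on the x axis and under RES on the y axis. Genes that rose under RES are orange, those that fell are blue, and the line marks equal responses. Most orange points lie below the line, and the circled genes SLPI, NDRG1 and ALDOC lie right of 0 under DMSO and just below 0 under RES.

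Against 2-CM, 1 gene was called by limma for a different response, or 0.00582% of the 17185 tested, and it was outside the 15735 genes described. At an unadjusted p under 0.05, 126 genes had a higher and 2660 a lower log2 fold change under RES, or 0.733% and 15.5%, and the median difference of all genes tested was -0.66. The total at this unadjusted level depended on the processing, being smaller under median-of-ratios scaling and larger after the GC correction. It also moved widely with 1 RES library left out, down without replicate 1 of either RES group and up without replicate 2. In the same comparison GC content and the difference had a Spearman's rho of 0.73 across genes. OAS1 had the smallest unadjusted p for a negative difference among the genes described at a mean of 5 TPM or more, with 2.32 and 1.87 TPM against 221 and 255 TPM under 2-CM, a response smaller by 1.70 under RES (SE 0.27, unadjusted p 1.58e-04, adjusted p 0.284). IFI27, STAG3L5P and AC018638.2 followed with differences of -1.90, -1.78 and -1.64 (adjusted p 0.284 for each). STAG3L5P was at -0.93 under RES and 0.86 under 2-CM, and AC018638.2 at -0.61 and 1.02, so their values had opposite signs. The positive differences with the smallest unadjusted p were those of AL354740.1, AD000671.1, TMEM256 and RPP21, at 2.21, 5.82, 1.29 and 1.95 (adjusted p 0.284 for each). TMEM256 was at 0.37 under RES and -0.92 under 2-CM, and RPP21 at 0.02 and -1.93. AD000671.1 overlaps LIN37 and PSENEN and was listed at 0 in both RES depc libraries, and its value of -2.10 under 2-CM rests on 2-CM depc replicate 1 at 17.3 TPM, with the other 3 2-CM libraries at 0, so its level is uncertain.

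The authors' deposited table for RES listed 60 genes higher and 22 lower at an adjusted p under 0.05, or 0.266% and 0.0975% of its 22565 genes with a value. Of those, 29 higher and 3 lower genes were also called here. In the authors' deposited table OAS2 had a log2 fold change of 7.19 and IFI44L of 7.89, larger than the values on the log2(TPM + 1) scale used here. HSPG2 and LRP1 were among its lower genes, at -2.00 (adjusted p 0.0209) and -1.88 (adjusted p 0.0413), while the authors' deposited table gave FLNA -1.48 with an adjusted p of 0.581.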

How the data were processed

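The deposited per-library files hold, per the file headers, StringTie 2.0.4 coverage, FPKM and TPM values for transcripts of GENCODE 32. Per the submitters' processing notes, bcl2fastq 2.20, HISAT2 2.1.0 and DESeq2 were also used, with the build hg38. The role of each tool is not given in the sources used here. No header carried a strand option. The authors also deposited a table of poly I:C against depc under RES with, per the file headers, a mean of normalized counts (a signal value), a log2 fold change with its error, a Wald-type score, and p-values before and after adjustment.

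Transcript TPM was summed per gene (Python 3.11.15). With R 4.3.3, limma 3.58.1 with an abundance trend was fitted to log2(TPM + 1) of all 12 libraries in 6 groups, over the 17185 genes that reached a TPM of 1 in 2 libraries. The pseudocount of 1 makes fold changes of low genes too small. Residual degrees of freedom were 6 and prior ones 2.74 in the median. Calls needed a limma p, adjusted by Benjamini-Hochberg over all genes tested, under 0.05. No counts were used, so depth limits precision only through the values. GC content, length and overlap of exons with another expressed gene came from GENCODE 44 transcripts of the same identifier and the deposited files. The GC correction subtracted each library's smoothed deviation along GC content.

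Named genes were the 15 calls per direction that changed most on the log2 scale among genes averaging at least 5 TPM in their higher group without overlap of libraries, for differences the 4 per direction with the smallest unadjusted p, and from each gene list those called, those apart and the most abundant. Where a list had many such genes, examples are given, and some genes are not reported here. The genes and lists were chosen with earlier results of these data known. The 33 lists are described by counts and medians, with no test over a list. In addition to those described in the report, lists with no call by limma were keratins, p53 targets, cytosolic ribosomal proteins, nuclear respiratory chain subunits, ATF4 targets, endoplasmic reticulum chaperones, cholesterol genes, DNA replication genes and immediate early genes, with medians from -0.57 to 0.25 (several of which change sign with 1 RES library left out), guanylate-binding and APOL genes at 0.74, and antiviral PARP and nuclear body genes at 1.27. Of the last 2 lists the GC correction called 3 and 8 genes as higher, and the authors' deposited table lists 2 of each as higher. The GC correction also called 3 immediate early genes and 1 cytosolic ribosomal protein gene as higher. Of the ATF4 targets it called 2 as higher and 1 as lower, and of the DNA replication genes 1 as lower. Deviations of same-numbered replicates correlated at 0.15 to 0.76 among the other 5 groups, but at -0.80 to -0.31 between RES poly I:C and each of them (-0.72 with RES depc), so the numbers were not taken to pair the RES libraries, and the labels were used as given. The fit was tested on simulated data, with independent noise of the same spread per gene in all 12 libraries. Such data hold no replicate trend along GC content and no groups of unequal spread, so that test does not cover them.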

Additional observations from a re-analysis of the deposited data

Results flagged for a closer look

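The response to poly I:C differed between RES and 2-CM by the test of the difference itself for AL035461.3 (chromosome 20, 5950949 to 6039856, plus strand), whose exons overlap those of CRLS1 and MCM8, so its level is uncertain. It was listed at 0 in all 4 RES libraries and in both 2-CM depc libraries, and at 5.56 and 5.89 TPM in the 2-CM poly I:C libraries. The difference, RES minus 2-CM, was -2.75 on the log2(TPM + 1) scale (SE 0.18, adjusted p 0.00245 by limma). It is outside the genes described because it did not reach a TPM of 1 under RES.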

How the results depend on the processing

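For poly I:C against depc under RES, 76 genes were called as reported. The count was 36 under FPKM (32 higher, 4 lower), 38 under upper-quartile scaling (36 and 2), 39 under median-of-ratios scaling, 178 with no filter on low genes (48 and 130), 125 at a TPM minimum of 5 (42 and 83), 610 after the GC correction, and 0 in a fit of only the 4 RES libraries, where 408 genes had an unadjusted p under 0.05. Leaving out each of the 12 libraries gave 17 to 53 calls, 17 without RES poly I:C replicate 2 (17 higher, 0 lower), 19 without RES poly I:C replicate 1 (18 and 1), 27 without RES depc replicate 1 (19 and 8) and 39 without RES depc replicate 2 (18 and 21). Leaving out a depc library of DMSO or any 2-CM library gave 21 to 23 calls, 2 or 3 of them lower. With the replicate number as a block 39 genes were called (25 higher, 14 lower), and in the 4 RES libraries alone the replicate block gave 16. Of the genes named for the largest changes, the block in all 12 libraries lost 4 that rose, IFIT2, IFIT3 and IFI44L among them, and 5 that fell. The crossed pairing, chosen after seeing the data as was the block in the 4 libraries, gave 45 calls. Of the remaining alternatives, leaving out DMSO poly I:C replicate 2 moved the count by more than 1.5 times, and the others stayed within 1.5 times the reported count.

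For the difference RES minus DMSO, 0 calls became 39 with no filter on low genes and 0 to 2 with a library left out. For RES minus 2-CM, 1 call became 21 with no filter, 0 at a TPM minimum of 5, with only genes above the filter in the RES libraries, with a pseudocount of 0.1, after the GC correction and in a fit of only the groups compared, and 1 to 3 with a library left out. None of the 30 genes named for the largest changes reversed its direction under an alternative. Genes named for differences of response or as uncalled list members were not followed through the alternatives. In the fit of only the groups compared all 30 lost their calls. OAS1, OAS2, OASL, IFI27, IFITM1, MX1, MX2 and CMPK2 lost theirs under no other alternative, and KMT2D and LAMA5 without each of the 12 libraries. Depth does not enter the TPM values, so low levels near 1 TPM are the least certain, and with 2 libraries a group a fit of the 4 RES libraries has 2 residual degrees of freedom.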
